A study of Mus musculus with 10 samples.

Results

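Solute carriers are the membrane proteins, named Slc in the mouse, that move nutrients, ions and metabolites into cells and between their compartments. The genes described here are those whose symbol starts with Slc and a digit, with a mean log2 signal of at least 7 over the 10 arrays of the series. Each gene was read through 1 probe set, the one with the highest mean among those annotated to exactly 1 symbol. Of 364 Slc genes measured, 143 reached that mean. Slc2a1, Slc7a11, Slc16a1 and Slc16a3 were left out by name. The remaining 139 genes belonged to 41 families and were drawn from 19938 genes tested. Log2 signal chose the members, so their levels are a description, and the tests below concern differences between groups of arrays.

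The arrays measured RNA of immortalized mouse macrophages from 2 lines. The TLR9KO line (called KO) lacks Toll-like receptor 9, an endosomal sensor of DNA, and the other line is wild-type B6 (called WT). KO cells were left unstimulated (2 arrays) or given beads of β-1,3 glucan, a sugar of fungal cell walls, at 20 beads per cell for 4 h (2 arrays). WT cells were left unstimulated (3 arrays) or given the same beads (3 arrays). Both lines are immortalized, and each genotype is 1 line, so effects of the genotype and of the line cannot be told apart. Whether the arrays of 1 group came from different cultures is not stated in the labels. The p-values therefore rest on the spread among these arrays alone, which may be technical.

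Solute carriers are grouped in families by sequence, and a family often shares a kind of substrate. Carriers in the plasma membrane bring in amino acids, sugars, metals, vitamins and nucleosides, those of the lysosome release the products of digestion to the cytosol, and those of the inner mitochondrial membrane link metabolism inside and outside that organelle. Macrophages digest what they engulf and recycle iron, so they use many lysosomal carriers and ferroportin, the exporter of iron.

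The members were sorted by substrate into 11 classes. The mitochondrial carriers were the most numerous with 30 genes, followed by 24 carriers of amino acids and peptides, 24 of metal ions and heme, and 16 of family 35, most of whose studied members carry nucleotide sugars into the Golgi apparatus and endoplasmic reticulum. There were 11 carriers of inorganic ions and pH, 9 of sugars and sugar phosphates, 9 of vitamins, choline and cofactors, 8 of organic anions, cations and lipids, and 4 of nucleosides and nucleobases. Slc66a2 had no assigned substrate. Slc9a3r1, Slc4a1ap and Slc7a6os carry an Slc symbol but encode a scaffold protein or products named after a neighbouring or partner gene. These 3 were set in a class of their own after the names of the members had been seen.

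Promoter sequence was available for 107 of the 139 members in the table used here, which is derived from RefSeq on GRCm38.p6. The 250 bases before the transcript start were searched on both strands, and 28 members had more than 1 such window. The windows shown belong to Slc44a1, the member with the largest positive difference between the lines among those with a window, to Slc24a5, the one with the largest negative difference, and to Slc27a1, Slc39a8 and Slc49a4. The last 3 are the members higher in KO that hold CACGTG, the E-box read by the MiT/TFE and MYC families of factors. Sequences run 5′ to 3′ towards the start site, and capitals mark CACGTG or the metal response element core TGCACNC (or its reverse complement). The windows were chosen after the values of the genes were known. Slc27a1 and Slc39a8 also had windows without CACGTG, which are not shown.
Slc44a1 (chr4:53440163-53440412, plus strand): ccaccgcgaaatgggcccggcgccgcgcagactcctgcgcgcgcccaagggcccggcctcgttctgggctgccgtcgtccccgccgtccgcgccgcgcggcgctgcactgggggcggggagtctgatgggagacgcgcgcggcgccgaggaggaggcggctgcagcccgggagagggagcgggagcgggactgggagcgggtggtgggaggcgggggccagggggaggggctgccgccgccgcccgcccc
Slc24a5 (chr2:125067877-125068126, plus strand): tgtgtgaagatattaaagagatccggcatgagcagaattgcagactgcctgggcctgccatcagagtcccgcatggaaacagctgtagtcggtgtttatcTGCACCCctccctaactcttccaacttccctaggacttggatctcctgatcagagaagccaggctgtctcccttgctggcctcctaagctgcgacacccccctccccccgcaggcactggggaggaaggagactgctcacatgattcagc
Slc27a1 (chr8:71570344-71570593, plus strand): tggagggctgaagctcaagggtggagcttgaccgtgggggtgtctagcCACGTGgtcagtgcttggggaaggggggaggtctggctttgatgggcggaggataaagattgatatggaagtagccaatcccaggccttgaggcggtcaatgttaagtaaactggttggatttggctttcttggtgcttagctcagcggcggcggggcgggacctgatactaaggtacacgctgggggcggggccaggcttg
Slc39a8 (chr3:135825407-135825656, plus strand): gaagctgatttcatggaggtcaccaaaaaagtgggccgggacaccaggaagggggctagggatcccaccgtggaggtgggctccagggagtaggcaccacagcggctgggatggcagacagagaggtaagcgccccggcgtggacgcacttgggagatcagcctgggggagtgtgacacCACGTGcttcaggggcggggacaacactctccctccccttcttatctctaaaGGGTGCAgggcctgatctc
Slc49a4 (chr16:35769371-35769620, minus strand): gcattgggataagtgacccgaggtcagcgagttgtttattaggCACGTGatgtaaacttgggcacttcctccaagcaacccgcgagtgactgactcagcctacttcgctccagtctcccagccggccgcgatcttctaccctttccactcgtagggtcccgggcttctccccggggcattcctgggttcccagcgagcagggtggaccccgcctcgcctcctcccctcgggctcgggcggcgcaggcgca

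CACGTG was present in 18 of the 107 members with a window (16.8%), against 11.0% of 6066 genes with a mean of at least 7 and 6.86% of all 27025 genes with a window. Among members that passed in a comparison of the lines, defined below, it was present in 3 of the 8 that were higher in KO. It was present in 0 of the 10 that were lower. Slc27a1, Slc39a8 and Slc49a4, the 3 with it, each passed in 1 comparison alone. None of their calls held when the arrays were centred on their medians. TGCACNC was also present in 18 members (16.8%), against 12.4% of genes with a mean of at least 7. Slc24a5 and Slc39a8 held it among the members that passed. The interferon-stimulated response element was present in 3 members (2.8%), Slc25a22, Slc37a1 and Slc25a15, against 3.03% of genes with a mean of at least 7, and in 0 of the 18 that passed. The ATF4 composite element TGATGCAA was present in 1 member, Slc50a1 (0.935%), against 0.593% of genes with a mean of at least 7 and 0.918% of all genes with a window. The 4 motifs were searched as separate words that share no overlap in the windows shown, and a match describes letters only.

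Of the 139 members, 131 averaged at least 7 in both lines. Slc43a3, Slc46a1, Slc27a4 and Slc35a5 reached 7 only in the KO mean, and Slc40a1, Slc25a32, Slc25a25 and Slc26a11 only in the WT mean. A gene that reaches the limit through 1 line had a head start in the comparison of the lines. Among the 131, 4 were higher and 15 lower in KO without beads (14.5%) and 7 higher and 9 lower with beads (12.2%), by the test given below, beside 16.3% and 13.5% of all genes with a mean of at least 7. The members nearest above the limit were Slc35a5 at 7.02, Slc27a4 at 7.03 and Slc46a1 at 7.05, and the genes nearest below were Slc45a3 at 6.89, Slc35e3 at 6.89 and Slc30a3 at 6.84. No member was below the 25th percentile of the probe sets on any array.

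The median over members was 8.39 and 8.40 on the unstimulated KO arrays, against 8.47, 8.49 and 8.47 on the unstimulated WT arrays. With beads it was 8.39 and 8.56 in KO, against 8.71, 8.61 and 8.28 in WT. WT bead array 3 stood apart. It read the members lower than the mean of WT bead arrays 1 and 2 by a median of -0.30 on the log2 scale, with 117 of 139 members lower, and genes with a mean of at least 7 shifted by a median of -0.36. It gave the lowest value of the 10 arrays for 49 members and the highest for 5. Slc25a36, a mitochondrial carrier of pyrimidine nucleotides, read 7.22 on it, against 8.72 and 8.48 on its 2 group mates, and Slc35a3, a Golgi carrier of UDP-N-acetylglucosamine, read 7.03, against 8.52 and 8.24. The SD within a group had a median over members of 0.10 in KO with beads and 0.19 in WT with beads, and of 0.10 and 0.09 in unstimulated KO and WT. Over all genes tested the shift was 0.08, the other way, and the array had the highest median over all probe sets, 6.102, against 5.75 to 5.97 on the other 9. Differences between the lines with beads are given below also without this array for the members that passed, and counts that passed also without it for the classes and lists.

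**Figure D1:**
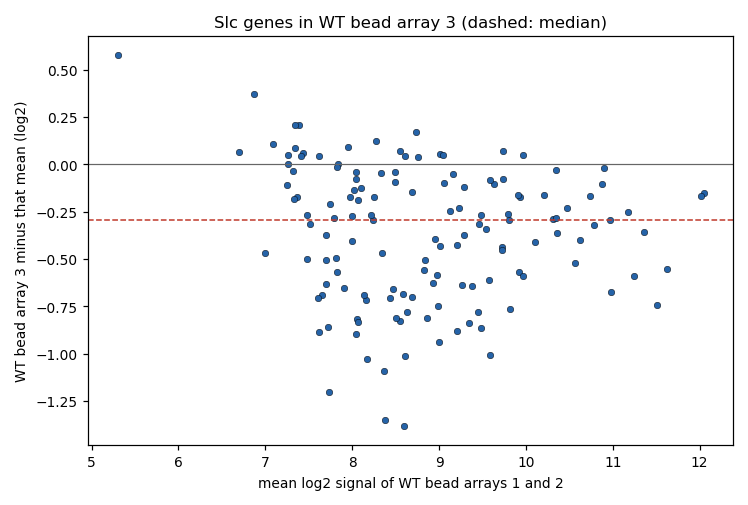
Each point is 1 of the 139 members. The horizontal axis gives its mean log2 signal on WT bead arrays 1 and 2, the vertical axis the log2 signal of WT bead array 3 minus that mean, and the dashed line the median of -0.30. Most points lie below 0, and 117 of 139 members were lower on array 3.

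The defining markers of macrophages were read in both lines. All 8 macrophage markers averaged at least 7, and of 23 markers of dendritic cells, granulocytes, lymphocytes, fibroblasts and epithelial cells, 22 averaged under 7. None of those 23 passed in any comparison, with limma. Adgre1, Csf1r and Fcgr1 were higher and Mertk lower in KO in both comparisons of the lines. The mean over the macrophage markers ran from 10.76 to 10.87 in unstimulated KO arrays, against 10.47 to 10.54 in unstimulated WT arrays. With beads it ran from 10.62 to 10.77 in KO, against 10.15 to 10.71 in WT. The part of these markers' shift in the results below was not tested. In RNA of whole cultures, fewer cells of a kind and less RNA per cell cannot be told apart.

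The first question was how the 2 lines differed without beads. Genes were called with limma, and to pass a gene needed an adjusted p (Benjamini-Hochberg, over all 19938 genes) under 0.05. Of the 139 members, 6 were higher and 17 lower in KO, 23 in all or 16.5%. In the same comparison 8.25% of all genes passed (3.79% higher and 4.46% lower). Of genes with a mean of at least 7, 16.3% passed (6.78% higher and 9.48% lower), so the members' share was near that of genes of like signal. The median difference over members was -0.12, beside -0.09 over genes with a mean of at least 7 and 0.02 over all genes. The arrays of the 2 groups did not overlap for 100 members, which is 71.9% of them, beside 62.3% of genes with a mean of at least 7 and 38.8% of all genes.

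With beads the same question was asked again. Here 9 members were higher and 11 lower in KO, 20 in all or 14.4%. Beside them 7.22% of all genes passed (3.82% higher and 3.4% lower), and 13.5% of genes with a mean of at least 7 (7.08% higher and 6.43% lower). The median difference over members was -0.05, and -0.13 without WT bead array 3. Without that array, 54 members passed with beads, 12 higher and 42 lower (38.8%), beside 39.8% of genes with a mean of at least 7 and 20.9% of all genes. Without beads 65 then passed, 20 higher and 45 lower (46.8%), beside 38.1% and 18.4%. The fit takes 1 error per gene from all 4 groups, so the spread of that array enters every comparison. The KO and WT arrays with beads did not overlap for 65 members, which is 46.8% of them, beside 40.4% of genes with a mean of at least 7 and 23.6% of all genes.

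The 2 comparisons rest on separate arrays but share 1 estimate of the spread. In them 16 members passed both times, 5 higher and 11 lower in KO, and 0 passed in opposite directions. These 16 were 69.6% of the members that passed without beads and 80% of those that passed with beads. Both comparisons set the same 2 lines against each other. The like shares over all genes were not computed, so these shares are a description. A further 7 passed only without beads, 4 only with beads, and 112 in neither. Among those that passed, 5 differed at least 2-fold without beads and 7 with beads, and here too no share over all genes was computed. For 37 members the difference was under 0.2 in size both times. Counts of the classes and lists below stand beside the shares of genes with a mean of at least 7 that passed. Those were 16.3% without beads and 13.5% with beads, or 38.1% and 39.8% without WT bead array 3.

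**Figure D2:**
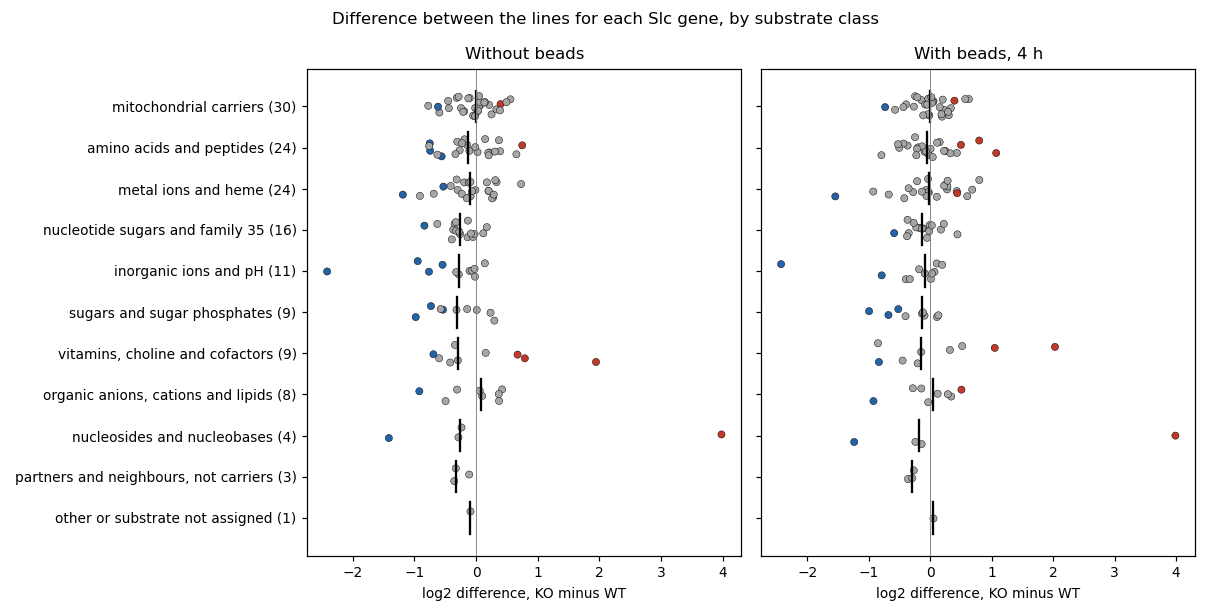
Each point is 1 member, placed by its log2 difference KO minus WT, without beads at left and with beads at right, in rows by substrate class with the number of genes in brackets. Red points passed and were higher in KO, blue points passed and were lower, grey points did not pass, and black bars give the class medians. The points farthest from 0 lie in the nucleoside, choline and inorganic ion classes, at 3.98 (Slc43a3), 1.95 (Slc44a1) and -2.42 (Slc24a5) without beads.

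Slc43a3 differed most of all members. It encodes a facilitative transporter of purine nucleobases in the plasma membrane. Its probe set 10473384 read 9.38 and 9.46 on the unstimulated KO arrays, against 5.58, 5.13 and 5.59 on the unstimulated WT arrays. With beads it read 9.42 and 9.54 in KO, against 5.18, 5.42 and 5.88 in WT. Every KO array lay far above every WT array. The log2 difference was 3.98 ± 0.21 (SE) without beads and 3.99 ± 0.21 with beads, or 4.18 without WT bead array 3. Each WT value was below the median of all probe sets on its array (5.75 to 6.102 on the WT arrays) and was not shown to be above background, so no fold is given. Since Slc43a3 entered the members through its KO level, these values are a description.

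The other 3 members of the nucleoside class are equilibrative transporters of family 29. Slc29a3, which acts in the lysosome, read 9.02 and 9.00 in unstimulated KO, against 10.50, 10.36 and 10.42 in unstimulated WT. The bead arrays gave 9.06 and 9.24 in KO, against 10.60, 10.52 and 10.04 in WT. The lines did not overlap. Slc29a3 was 2.67-fold lower in KO without beads (log2 -1.42 ± 0.16; limma adjusted p = 5.33e-04) and 2.35-fold lower with beads (-1.24 ± 0.16; adjusted p = 0.00124), or -1.41 without WT bead array 3. Slc29a1 and Slc29a2, the plasma membrane nucleoside transporters, differed by -0.29 and -0.24 without beads and by -0.24 and -0.14 with beads, and neither passed. This class of 4 genes thus held 1 member higher and 1 lower in KO in each comparison. Without WT bead array 3 it held 1 higher and 2 lower without beads, and 1 higher and 1 lower with beads.

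Among 9 carriers of vitamins, choline and cofactors, 3 were higher and 1 lower in KO without beads, and 2 were higher and 1 lower with beads. When WT bead array 3 was left out, these counts were 3 and 4, and 2 and 3. Slc44a1, a choline transporter of the plasma membrane and mitochondria, read 9.44 and 9.31 in unstimulated KO, against 7.37, 7.55 and 7.36 in unstimulated WT. With beads it read 9.38 and 9.73 in KO, against 7.68, 7.71 and 7.19 in WT. No KO array came near a WT array. Slc44a1 was 3.85-fold higher in KO without beads (1.95 ± 0.17; limma adjusted p = 1.34e-04) and 4.08-fold higher with beads (2.03 ± 0.17; adjusted p = 1.06e-04), or 1.86 without WT bead array 3. A second Slc44a1 probe set, not used in the test, differed by 1.92 without beads and by 1.88 with beads. With beads it read 8.24 and 8.90 in KO, against 7.67, 7.40 and 5.00 in WT. The low value of WT bead array 3 thus enlarges the 1.88, and KO lay closer to the other 2 WT bead arrays.

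Slc44a2, the related choline transporter-like protein, went the other way. It read 8.43 and 8.15 in unstimulated KO, against 8.88, 9.05 and 9.02 in unstimulated WT, a difference of -0.69 ± 0.17 (limma adjusted p = 0.0378). With beads the difference was -0.83 ± 0.17 (adjusted p = 0.0174), or -0.98 without WT bead array 3. Slc46a1, the proton-coupled folate transporter, read 7.51 and 7.35 in unstimulated KO, against 6.83, 6.45 and 6.65 in unstimulated WT. The bead arrays gave 7.64 and 7.90 in KO, against 6.63, 6.77 and 6.76 in WT. Slc46a1 was higher in KO by 0.79 ± 0.13 without beads (adjusted p = 0.00615) and by 1.05 ± 0.13 with beads (adjusted p = 0.00124), or 1.07 without WT bead array 3. Since Slc46a1 reached 7 only in the KO mean, these values are a description.

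Slc49a4, a lysosomal membrane protein that carries vitamin B6, read 8.73 and 8.46 in unstimulated KO, against 8.18, 7.72 and 7.85 in unstimulated WT. It passed only without beads, at 0.67 ± 0.16 (limma adjusted p = 0.0275), and differed by 0.52 ± 0.16 with beads (adjusted p = 0.0895), or 0.46 without WT bead array 3. Of the rest, Slc19a2, a thiamine transporter, was at -0.60 without beads and -0.85 with beads (adjusted p = 0.0563), and -1.11 without WT bead array 3. Slc23a2, the ascorbate transporter with the highest signal of the class, was at 0.16 and 0.32 and did not pass.

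**Figure D3:**
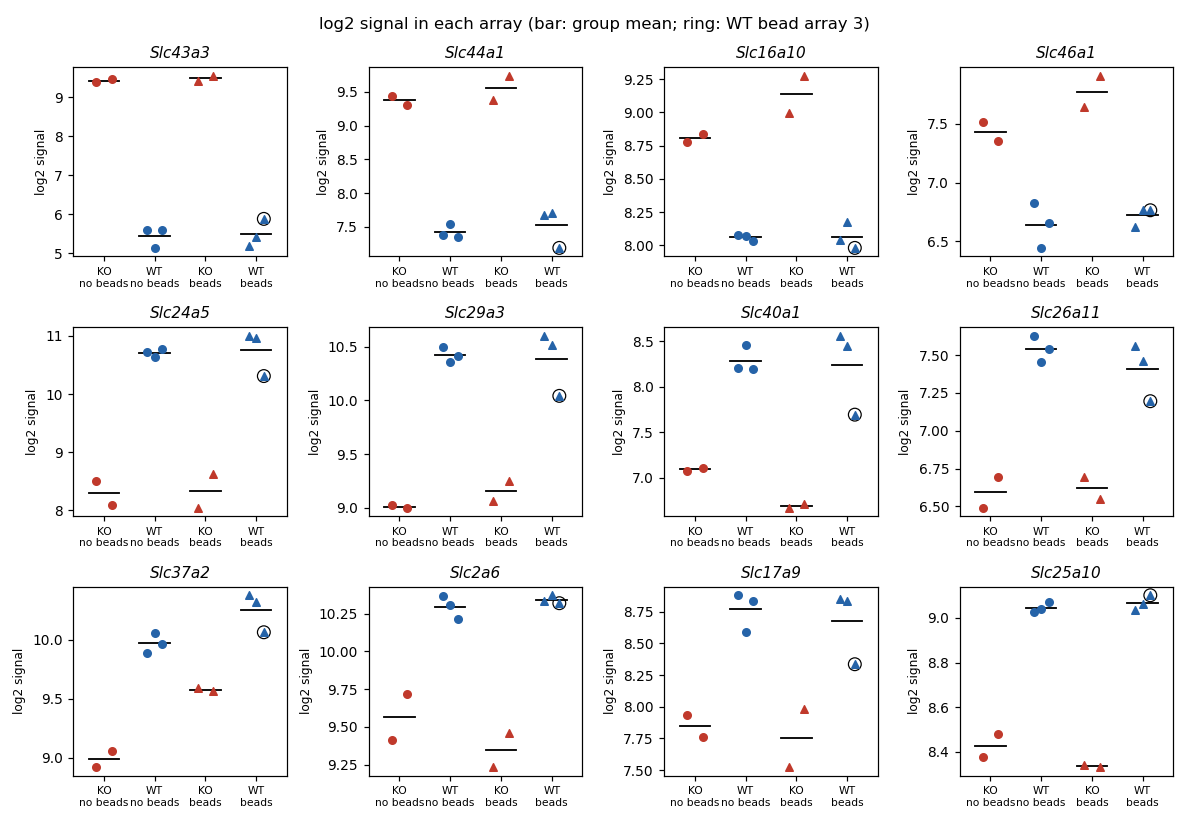
Log2 signal of 12 members on each of the 10 arrays. Red marks KO and blue WT, circles are unstimulated and triangles bead arrays, bars are group means, and a ring marks WT bead array 3. In the 4 panels of the top row KO lies above WT, and in the other 8 panels KO lies below WT, without overlap of the lines at either treatment.

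The 11 carriers of inorganic ions and pH held 0 members higher and 4 lower in KO without beads, and 0 higher and 2 lower with beads, or 0 and 6, and 0 and 4, without WT bead array 3. Slc24a5, a potassium-dependent sodium-calcium exchanger known from melanosomes, read 8.51 and 8.08 in unstimulated KO, against 10.72, 10.64 and 10.77 in unstimulated WT. With beads it read 8.04 and 8.62 in KO, against 11.01, 10.96 and 10.31 in WT. The gap between the lines exceeded the spread inside each. Slc24a5 was 5.34-fold lower in KO without beads (log2 -2.42 ± 0.24; limma adjusted p = 2.67e-04) and 5.36-fold lower with beads (-2.42 ± 0.24; adjusted p = 2.69e-04), or -2.65 without WT bead array 3.

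Slc26a11, a sulfate transporter, read 6.49 and 6.70 in unstimulated KO, against 7.63, 7.46 and 7.54 in unstimulated WT. Its difference was -0.95 ± 0.13 without beads (limma adjusted p = 0.00176) and -0.79 ± 0.13 with beads (adjusted p = 0.00535), or -0.89 without WT bead array 3. Since Slc26a11 reached 7 only in the WT mean, these values are a description. Slc12a2, the sodium-potassium-chloride cotransporter, and Slc20a2, a sodium-phosphate cotransporter, passed only without beads, at -0.76 ± 0.15 (adjusted p = 0.0125) and -0.54 ± 0.11 (adjusted p = 0.0142). With beads Slc12a2 was at -0.33 and Slc20a2 at -0.40, and at -0.49 and -0.48 without WT bead array 3. Slc20a1, the other phosphate cotransporter of its family, differed by -0.28 without beads and by 0.07 with beads and did not pass.

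Of 9 carriers of sugars and sugar phosphates, 3 were lower and 0 higher in KO, in both comparisons, and they were the same 3. Without WT bead array 3, 1 was higher and 5 lower without beads, and 0 higher and 4 lower with beads. Slc37a2, a glucose-6-phosphate carrier of the endoplasmic reticulum that is abundant in macrophages, read 8.92 and 9.06 in unstimulated KO, against 9.88, 10.06 and 9.96 in unstimulated WT. The bead arrays gave 9.59 and 9.56 in KO, against 10.37, 10.32 and 10.06 in WT. The KO arrays were below the WT arrays at both treatments. Slc37a2 was at -0.98 ± 0.12 without beads (limma adjusted p = 7.62e-04) and at -0.68 ± 0.12 with beads (adjusted p = 0.00655), or -0.77 without WT bead array 3.

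Slc2a6, a glucose transporter family member found in lysosomes, read 9.41 and 9.72 in unstimulated KO, against 10.37, 10.31 and 10.21 in unstimulated WT. With beads it read 9.23 and 9.46 in KO, against 10.33, 10.37 and 10.32 in WT. It was at -0.73 ± 0.12 without beads (limma adjusted p = 0.0045) and at -0.99 ± 0.12 with beads (adjusted p = 7.67e-04), where the 3 WT arrays were close together, or -1.003 without array 3 of them. Slc45a4 was at -0.54 ± 0.13 (adjusted p = 0.0347) and -0.52 ± 0.13 (adjusted p = 0.0457), near the limit, and at -0.48 with beads without WT bead array 3. Slc2a3, the high-affinity glucose transporter, was at -0.32 and -0.09, and Slc50a1 at 0.23 and 0.11, and neither passed.

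Among 24 carriers of metal ions and heme, 0 were higher and 2 lower in KO without beads, and 1 was higher and 1 lower with beads. Leaving out WT bead array 3 gave 4 higher and 6 lower without beads, and 3 higher and 6 lower with beads. Genes with a mean of at least 7 then passed in 38.1% and 39.8% of cases. Slc40a1, ferroportin, read 7.08 and 7.11 in unstimulated KO, against 8.21, 8.45 and 8.19 in unstimulated WT. The bead arrays gave 6.67 and 6.71 in KO, against 8.56, 8.45 and 7.69 in WT. Even the low WT bead array 3 stayed above both KO bead arrays. Slc40a1 was 2.28-fold lower in KO without beads (log2 -1.19 ± 0.22; limma adjusted p = 0.0106) and 2.91-fold lower with beads (-1.54 ± 0.22; adjusted p = 0.0027), or -1.81 without WT bead array 3. Since Slc40a1 reached 7 only in the WT mean, these values are a description.

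The other metal carriers differed less. Slc39a10, a zinc importer, read 9.49 and 9.68 in unstimulated KO, against 10.11, 10.21 and 10.04 in unstimulated WT (-0.53 ± 0.10; limma adjusted p = 0.0132), and was at -0.28 with beads (adjusted p = 0.199), or -0.33 without WT bead array 3. Slc39a8, an importer of zinc and manganese, passed only with beads. It read 8.39 and 8.54 in KO with beads, against 7.98 to 8.10 in WT with beads (0.44 ± 0.10; adjusted p = 0.0286), or 0.43 higher without WT bead array 3. Slc11a2, the iron importer DMT1, was at -0.09 and -0.13, the zinc exporter Slc30a1 at -0.41 and -0.21, the zinc importer Slc39a1 at 0.28 both times, and the heme carrier Slc48a1 at -0.09 and -0.02, and none of these 4 passed. Slc41a1, a magnesium transporter, had the largest negative difference among metal carriers that did not pass, -0.91 without beads and -0.92 with beads, with standard errors of 0.27, and -1.24 with beads when WT bead array 3 was left out.

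Proteins that store or handle metals, taken from a list of 18 genes outside the Slc symbols, showed 1 higher and 4 lower in KO without beads, and 0 higher and 4 lower with beads. Their median difference was -0.00 without beads and -0.08 with beads. Without WT bead array 3 the counts were 2 and 4 without beads and 0 and 5 with beads, where the median was then -0.20. These were 33.3% and 27.8% of the list, beside 38.1% and 39.8% of genes with a mean of at least 7. Tfrc, the transferrin receptor, was at -1.70 ± 0.10 and -1.51 ± 0.10, Hmox1, which degrades heme, at -1.22 ± 0.10 and -0.84 ± 0.10, and Steap3, an endosomal ferric reductase, at -0.79 ± 0.09 and -0.76 ± 0.09. Aco1, which doubles as an iron-sensing RNA-binding protein, was at -0.64 ± 0.09 and -0.38 ± 0.09. Cp, ceruloplasmin, was the gene higher without beads, at 0.52 ± 0.10, and was at 0.11 ± 0.10 with beads, where it did not pass. Its values, 4.81 to 5.44, lay below the median of all probe sets on each array. They were not shown to be above background.

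Among the 24 carriers of amino acids and peptides, 1 was higher and 3 were lower in KO without beads, and 3 were higher and 0 lower with beads. When WT bead array 3 was left out, 4 were higher and 5 lower without beads, and 4 higher and 7 lower with beads. The shares of genes with a mean of at least 7 were then 38.1% and 39.8%. Slc16a10, a transporter of aromatic amino acids, read 8.78 and 8.84 in unstimulated KO, against 8.08, 8.07 and 8.03 in unstimulated WT. With beads it read 9.00 and 9.27 in KO, against 8.04, 8.17 and 7.98 in WT. Slc16a10 was higher in KO by 0.75 ± 0.11 without beads (limma adjusted p = 0.00236) and by 1.07 ± 0.11 with beads (adjusted p = 2.84e-04), or 1.03 without WT bead array 3.

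The 3 members lower in KO without beads all belong to family 7. Slc7a1, the cationic amino acid transporter, read 9.88 and 10.14 in unstimulated KO, against 10.86, 10.68 and 10.74 in unstimulated WT (-0.75 ± 0.13; limma adjusted p = 0.00675). Slc7a6, an exchanger of cationic for neutral amino acids, read 8.81 and 8.93, against 9.60, 9.66 and 9.58 in unstimulated WT (-0.75 ± 0.14; adjusted p = 0.011). Slc7a5, which imports large neutral amino acids, read 10.45 and 10.72, against 11.23, 11.08 and 11.13 in unstimulated WT (-0.56 ± 0.12; adjusted p = 0.0206). For none of the 3 did the lines overlap. With beads they were at -0.43, -0.50 and -0.37, with adjusted p from 0.0728 to 0.13, and at -0.54, -0.65 and -0.45 without WT bead array 3. The change of these differences with beads did not pass for any member, as given further on.

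Slc3a2, the heavy chain that partners some carriers of family 7 at the plasma membrane, differed by -0.15 ± 0.10 without beads and -0.02 ± 0.10 with beads. Slc7a8, a light chain of the same family, was at -0.11 and 0.25. Slc1a5, the glutamine transporter, was at -0.18 and 0.11. Slc15a3 and Slc15a4, lysosomal peptide and histidine transporters, the second of which is needed for signalling by endosomal Toll-like receptors, were at 0.20 and 0.20 without beads and at 0.01 and 0.04 with beads. None of these 5 passed in either comparison.

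With beads, Slc38a2, a sodium-coupled carrier of small neutral amino acids, read 10.70 and 10.74 in KO, against 10.39, 10.24 and 10.02 in WT (0.50 ± 0.12; limma adjusted p = 0.0337). Slc6a17, a vesicular carrier of neutral amino acids best known from neurons, read 9.82 and 9.89 in KO, against 9.32, 9.22 and 8.63 in WT (0.80 ± 0.18; adjusted p = 0.0298). Without WT bead array 3, which was the lowest for both, they were at 0.40 and 0.59. Without beads Slc38a2 was at 0.21 and Slc6a17 at 0.39, and neither passed.

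The response of genes to amino acid shortage runs through the factor ATF4. Of 18 genes listed for it 3 were higher and 0 lower in KO in each comparison. They were Ddit3 (1.02 ± 0.14 without beads and 1.06 ± 0.14 with beads), Nupr1 (0.83 ± 0.12 and 0.81 ± 0.12) and Atf3 (0.78 ± 0.11 and 0.62 ± 0.11), all 3 of them transcription regulators. Atf4 itself was at 0.24 and 0.36, and Asns, asparagine synthetase, at 0.11 and 0.35, and neither passed. The list's median difference was 0.11 without beads and 0.17 with beads. Its counts of 3 in 18 stand beside shares of 16.3% and 13.5% among genes with a mean of at least 7. Without WT bead array 3, 5 were higher and 0 lower without beads, and 5 higher and 1 lower with beads. The median with beads was then 0.14. Those shares of the list, 27.8% and 33.3%, stood beside 38.1% and 39.8% of genes with a mean of at least 7.

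Of 19 genes of lysosomal nutrient sensing, the machinery that reports amino acids in the lysosome to the kinase mTORC1, 2 were higher and 2 lower in KO without beads, and 3 were higher and 2 lower with beads. Rragd, a GTPase of that machinery, was at -1.95 ± 0.24 and -1.87 ± 0.24. The scaffold genes Lamtor2 and Lamtor4 went opposite ways, at 1.14 ± 0.14 and 0.95 ± 0.14 for Lamtor2 and at -0.96 ± 0.13 and -1.03 ± 0.13 for Lamtor4. Tfe3, a factor of the MiT/TFE family, was at 0.56 ± 0.13 and 0.57 ± 0.13. Of the same family, Tfeb was at 0.48 and 0.165 and Mitf at 0.32 and 0.27, and neither passed. The median difference of the list was 0.07 without beads and 0.10 with beads, the second of which was -0.06 without WT bead array 3. Without that array 5 were higher and 3 lower without beads, and 4 higher and 4 lower with beads. This was 42.1% of the list both times, beside 38.1% and 39.8% of genes with a mean of at least 7.

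Of 30 mitochondrial carriers, 1 was higher and 1 lower in KO in each comparison, and the class median was 0.01 without beads and 0.00 with beads, with 15 of 30 members above 0 both times. Without WT bead array 3, 4 were higher and 6 lower without beads, and 1 higher and 6 lower with beads, where the median was then -0.096. The median was below 0 with the arrays centred on their medians (-0.04 without beads and -0.02 with beads) and above 0 with centring on 75th percentiles (0.06 and 0.02). Slc25a10, which exchanges dicarboxylates for phosphate, read 8.38 and 8.48 in unstimulated KO, against 9.03, 9.04 and 9.07 in unstimulated WT. The bead arrays gave 8.34 and 8.33 in KO, against 9.04, 9.06 and 9.10 in WT. Its arrays were close together within each group. Slc25a10 was at -0.62 ± 0.08 without beads (limma adjusted p = 0.00156) and -0.73 ± 0.08 with beads (adjusted p = 5.91e-04), or -0.71 without WT bead array 3.

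Slc8b1, the mitochondrial sodium-calcium exchanger, read 9.03 and 9.01 in unstimulated KO, against 8.69, 8.49 and 8.68 in unstimulated WT, and was higher by 0.40 ± 0.10 without beads (limma adjusted p = 0.0433) and by 0.40 ± 0.10 with beads (adjusted p = 0.0486), or 0.35 without WT bead array 3. The other 28 ran from -0.78 (Slc25a32, which serves folate and flavin import) to 0.56 (Slc25a24, an ATP-magnesium and phosphate carrier) without beads, and with beads from -0.57 (Slc25a12, an aspartate-glutamate carrier) to 0.63 (Slc25a24). Slc25a5, an ADP/ATP carrier and the member with the highest signal of the class, was at -0.31 ± 0.09 and -0.26 ± 0.09 and did not pass. Its 3 probe sets differed by -0.28 to -0.31 without beads and by -0.26 to -0.28 with beads. Near-identical copies of this gene exist in the genome, so its signal may be shared and is uncertain.

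Family 35 lay below 0 in 14 of its 16 members without beads, with a median of -0.27, and in 12 of 16 with beads, with a median of -0.12, or -0.24 without WT bead array 3. Of all genes with a mean of at least 7, 60.3% lay below 0 without beads and 54.8% with beads. Over the 3 other scalings tried, 12 to 14 lay below 0 without beads and 10 to 12 with beads. Slc35e1, whose substrate is not settled, was the member that passed. It read 9.00 and 9.07 in unstimulated KO, against 9.93, 9.93 and 9.76 in unstimulated WT. With beads it read 9.15 and 9.09 in KO, against 9.71, 9.76 and 9.65 in WT. The lines stayed apart both times, at -0.84 ± 0.09 without beads (limma adjusted p = 5.11e-04) and -0.59 ± 0.09 with beads (adjusted p = 0.00448), or -0.61 without WT bead array 3. The other 15 ran from -0.63 (Slc35c1, a Golgi carrier of GDP-fucose) to 0.17 (Slc35a2, a carrier of UDP-galactose) without beads. Slc35a4, the highest in signal, was at -0.35 and -0.18, and its second probe set at -0.26 and 0.11. Without that array, 0 of the 16 were higher and 6 lower with beads, and 0 higher and 7 lower without beads.

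Of 8 carriers of organic anions, cations and lipids, 0 were higher and 1 lower in KO without beads, and 1 was higher and 1 lower with beads, or 3 and 2, and 1 and 2, without WT bead array 3. Slc17a9, which loads nucleotides such as ATP into vesicles, read 7.94 and 7.76 in unstimulated KO, against 8.88, 8.59 and 8.84 in unstimulated WT. The bead arrays gave 7.52 and 7.98 in KO, against 8.85, 8.84 and 8.34 in WT. It was at -0.92 ± 0.19 both times (limma adjusted p = 0.0171 without beads and 0.0184 with beads), and at -1.09 with beads without WT bead array 3. Slc27a1, a fatty acid transport protein, read 11.35 and 11.39 in KO with beads, against 10.98, 10.94 and 10.67 in WT with beads (0.51 ± 0.12; adjusted p = 0.0322), or 0.41 higher without WT bead array 3, and was at 0.37 without beads (adjusted p = 0.105). Slc16a6 was at -0.50 and -0.28, and Slc17a5, the lysosomal exporter of sialic acid, at 0.42 and 0.34, and neither passed. Slc66a2 was at -0.09 and 0.05. The 3 genes that do not encode carriers were all below 0 in both comparisons, and none passed, while without WT bead array 3 there were 2 lower without beads and 3 lower with beads. The genes named at the ends of a class's range were picked after their values were seen.

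**Figure D4:**
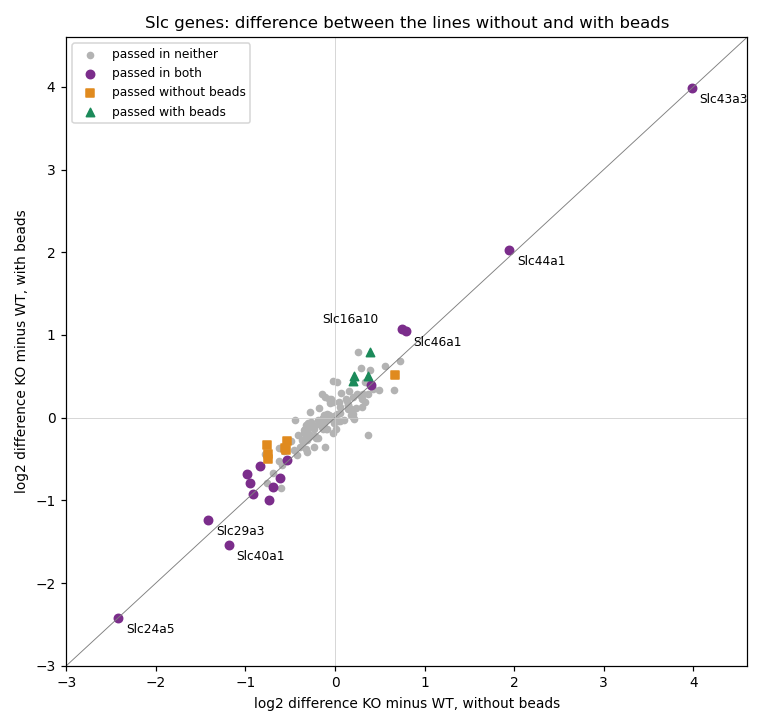
Each point is 1 of the 139 members, with its log2 difference KO minus WT without beads on the horizontal axis and with beads on the vertical axis, and the diagonal marks equal differences. Purple points passed in both comparisons (16), orange squares only without beads (7), green triangles only with beads (4) and grey points in neither (112). Slc43a3, Slc44a1 and Slc24a5 lie far out, with like values in both.

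The calls differed in how far they held when 1 array was left out or the processing was changed. Slc44a1, Slc24a5, Slc29a3 and Slc25a10 passed in both comparisons under each alternative run. So did Slc35e1, Slc37a2 and Slc26a11 without beads and Slc16a10, Slc2a6 and Slc46a1 with beads. Slc26a11 and Slc46a1 reached the member limit only in the mean of the line where they were higher. Their calls therefore remain a description. Without beads, leaving out unstimulated KO array 1 brought the count of members that passed to 9, and 14 calls were lost, those of Slc40a1, Slc2a6, Slc46a1, Slc17a9, Slc44a2, Slc45a4, Slc49a4, Slc8b1, Slc12a2, Slc20a2, Slc39a10, Slc7a1, Slc7a5 and Slc7a6. Leaving out unstimulated KO array 2 brought the count to 14. With beads, 11 members passed without either KO bead array, and 13 without WT bead array 2. Leaving out either KO bead array ended the calls of Slc27a1, Slc37a2, Slc38a2, Slc39a8, Slc45a4, Slc6a17 and Slc8b1. With 1 KO array left in a group, that array is assumed to vary like the other groups. Centring the arrays on their medians ended 12 calls without beads, Slc16a10 and Slc40a1 among them, and 10 with beads. When the KO and WT bead arrays were fitted alone, 12 calls were lost, among them that of Slc40a1, whose adjusted p was then 0.0601.

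Transporters outside the Slc symbols were read for comparison. Of 19 ABC transporters measured, 4 were higher and 2 lower in KO without beads, and 3 were higher and 2 lower with beads. Of genes with a mean of at least 7, 16.3% and 13.5% passed, less than the share of the ABC transporters both times, which was not tested. Abcb1a, a drug exporter, was at -1.89 ± 0.15 and -1.52 ± 0.15, Abcd2, a peroxisomal fatty acid transporter, at -1.74 ± 0.09 and -2.17 ± 0.09, and Abca1, which exports cholesterol, at 1.11 ± 0.16 and 0.91 ± 0.16. Of 15 further carriers and partners, 0 were higher and 2 lower without beads, and 1 was higher and 1 lower with beads. Sfxn1, a mitochondrial serine carrier, was at -0.74 ± 0.09 and -0.51 ± 0.09. Of 15 genes that handle purines and pyrimidines, 2 were higher and 2 lower without beads, and 1 was higher and 0 lower with beads. Samhd1, which degrades deoxynucleotides, was at 1.27 ± 0.14 and 0.97 ± 0.14, and Gda, which deaminates guanine, at -0.92 ± 0.23 without beads and -0.57 ± 0.23 with beads, where it did not pass, and -0.85 without WT bead array 3. When that array was left out, the ABC transporters held 4 higher and 4 lower without beads and 3 higher and 7 lower with beads. The further carriers held 1 and 3 both times. Purine and pyrimidine genes held 4 and 3 without beads and 6 and 2 with beads. The shares were 42.1% and 52.6% for the ABC transporters and 26.7% both times for the further carriers. For the purine and pyrimidine genes they were 46.7% and 53.3%. Among genes with a mean of at least 7, 38.1% and 39.8% then passed.

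The second question was whether beads changed the members. With limma, 0 of 139 passed in KO (beads minus unstimulated), 0 in WT and 0 in the difference between the 2 responses, beside 0.0% of all genes in each. At an unadjusted p under 0.05 there were 10 of 139 members in KO, 4 in WT and 3 in the difference. Of 7429 genes with a mean of at least 7 there were 252, 101 and 96, which is 3.39%, 1.36% and 1.29%. Of all genes the shares were 1.8%, 0.838% and 0.863%. The members' share was the higher each time, which was not tested. The arrays with and without beads did not overlap for 59 members in KO (42.4%), beside 29.8% of genes with a mean of at least 7 and 24.4% of all genes. In WT they did not overlap for 12 (8.63%), beside 4.31% and 3.53%. The median of the members was 0.07 in KO, and in WT it was 0.00, or 0.10 without WT bead array 3. The comparison of the lines without beads and the bead response of KO share the unstimulated KO arrays. The genes named next had an unadjusted p under 0.05 and were chosen after their values were seen, so each is a description.

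Slc37a2 read 9.59 and 9.56 in KO with beads, against 8.92 and 9.06 in unstimulated KO. In WT it read 10.37, 10.32 and 10.06 with beads, against 9.88, 10.06 and 9.96 unstimulated. Bead arrays were the higher in each line, narrowly so for array 3 of WT, by 0.59 ± 0.13 in KO (unadjusted p = 0.00117) and 0.28 ± 0.10 in WT (0.38 without WT bead array 3). It was the member with an unadjusted p under 0.05 in both lines.

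Slc20a1 read 10.19 and 10.27 in KO with beads, against 9.71 and 9.87 in unstimulated KO (0.44 ± 0.11). In WT it read 10.25, 10.17 and 10.05 with beads, against 10.07, 10.07 and 10.07 unstimulated. The difference between the responses was 0.35 ± 0.14. Slc6a8, the creatine transporter, read 10.48 and 10.35 in KO with beads, against 9.65 and 10.07 in unstimulated KO (0.55 ± 0.15), and Slc7a8 read 11.19 and 11.40, against 10.78 and 10.64 (0.59 ± 0.19). In WT, Slc7a8 read 11.34, 11.15 and 10.66 with beads, against 10.80, 10.82 and 10.83 unstimulated, so that its WT bead arrays lay on both sides of the unstimulated ones.

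Slc6a12, the betaine and GABA transporter, and Slc9a3r1 were the 2 members with lower values in KO with beads among the 10 with an unadjusted p under 0.05. Slc6a12 read 7.44 and 7.53 in KO with beads, against 8.19 and 7.94 in unstimulated KO (-0.58 ± 0.16). In WT it read 7.84, 7.75 and 7.51 with beads, against 7.89, 7.56 and 7.63 unstimulated, where the groups overlapped. The difference between the responses was -0.59 ± 0.20 (unadjusted p = 0.0165). In WT the lowest unadjusted p belonged to Slc15a3, which read 9.06, 9.06 and 8.96 with beads, against 8.47, 8.80 and 8.68 unstimulated (0.38 ± 0.10; unadjusted p = 0.00531). In KO Slc15a3 read 9.01 and 9.05 with beads, against 8.74 and 8.95 unstimulated. Slc43a2, a carrier of neutral amino acids, read 9.97, 9.97 and 9.38 in WT with beads, against 9.56, 8.94 and 9.28 unstimulated. Slc39a10 read 9.96, 9.87 and 9.75 in WT with beads, against 10.11, 10.21 and 10.04 unstimulated (-0.26 ± 0.09). The remaining members with an unadjusted p under 0.05 in KO were Slc12a2 (0.40), Slc46a1 (0.34), Slc16a10 (0.33), Slc3a2 (0.25) and Slc9a3r1 (-0.31).

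**Figure D5:**
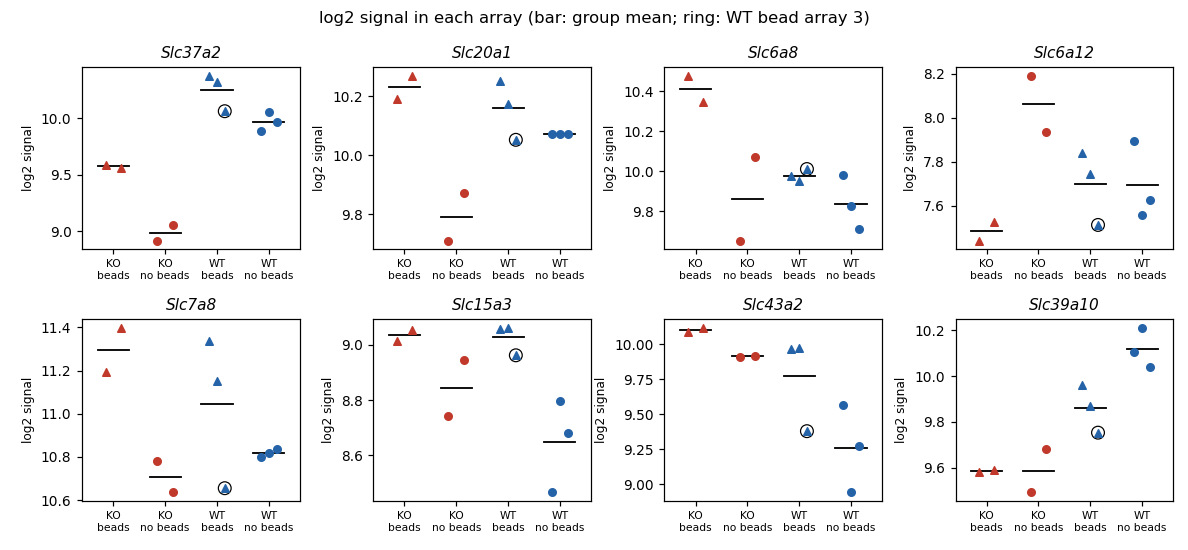
Log2 signal of 8 members on each array, chosen by an unadjusted p under 0.05 in a bead comparison. Red marks KO and blue WT, triangles are bead and circles unstimulated arrays, bars are group means, and a ring marks WT bead array 3. In Slc37a2 the bead arrays lie above the unstimulated arrays in both lines, and those of Slc6a12 lie below them in KO. No member passed in a bead comparison.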

How the data were processed

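RNA of immortalized mouse macrophages was read on 10 Affymetrix arrays from biotin-labelled cDNA, with 100 ng of total RNA amplified and 5.5 µg of cDNA labelled per the labels. The deposited values are log2 signals of probe sets. Per the submitters' processing notes the authors made them with RMA, which corrects background, equalises probe distributions and summarises probes. The version of RMA, whether all arrays were normalised together and the filters applied were not given in the sources used here. Platform annotation assigned 1 symbol to 21789 of 28853 probe sets, several to 1621 and none to 5443, and 21698 of the single symbols matched a current gene by Entrez ID. For each of 19938 genes the probe set of highest mean was kept. No gene was removed for low signal.

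All genes were fitted in limma 3.58.1 (R 4.3.3) by lmFit on the 4 groups, followed by a plain eBayes with neither trend nor robust option. Residual degrees of freedom were 6 and those of the prior 3.23, and the procedure was tested on simulated data. The contrasts were KO minus WT without beads, KO minus WT with beads, beads minus unstimulated in each line, and the difference between the bead responses. Tests were two-sided, adjusted by Benjamini-Hochberg over all genes, and passed under 0.05. The number of arrays limits the precision.

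The members, the substrate classes and the lists were chosen with earlier results of these data known. Named genes were, per class, up to 5 that passed with the largest difference, the one with the highest signal, and 17 symbols named in any case, of which 15 were members. Genes named outside this rule, those of the lists included, are a description, and not each is marked where it stands. Among the members these included Slc7a8, Slc25a36 and Slc35a3. Slc11a1 was named by no probe set with a single symbol and is not analysed here. Alternatives were other variance moderation, centring, quantile normalisation, array weights, the compared groups alone, other gene and member limits, a stricter threshold, the mean of probe sets and leaving out each array.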

Additional observations from a re-analysis of the deposited data

How the results depend on the processing

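Counts of members that passed between the lines changed with the processing. Without beads, where 23 passed, 12 did with arrays centred on their medians, 47 after quantile normalisation, 75 with array weights, 55 with the unstimulated groups fitted alone, 12 at an adjusted p under 0.01, and 9 to 65 when 1 array was left out, lowest without unstimulated KO array 1 (14 without KO array 2) and highest without WT bead array 3. With beads, where 20 passed, the counts were 10, 38, 67, 8 and 12 for the same alternatives, and 11 to 54 when 1 array was left out, lowest without either KO bead array (13 without WT bead array 2) and highest without WT bead array 3. In the WT bead comparison 63 members passed with array weights, where 9174 of all genes did, and 0 under every other alternative run. The iteration behind those weights stopped before it converged. WT bead array 3 had the weight 0.07, WT bead array 2 had 12.136 and unstimulated WT array 3 had 5.27. The 63 calls thus rest largely on 1 array in each WT group. In the KO bead comparison and in the difference between responses 0 passed under every alternative run, with the groups alone giving no separate fit for the difference. Of 43 named differences that passed, 16 passed under all alternatives run and 27 did not pass under at least 1. Among the 16 were those of Slc43a3, Slc44a1, Slc24a5, Slc29a3 and Slc25a10 in both comparisons. The 16 also held Slc26a11 without beads and Slc46a1 with beads. Slc43a3, Slc26a11 and Slc46a1 reached the member limit only in the mean of the line where they were higher. Their calls therefore remain a description. Slc8b1 and Slc45a4 lost the call most often, in 14 and 13 of 20 alternatives with beads. Differences near 0 changed sign with beads. That of Slc15a3 was -0.015 with median centring, -0.027 with array weights, and from -0.026 (without WT bead array 3) to 0.026 (without KO bead array 1) when 1 array was left out. That of Slc3a2 ran from -0.10 without KO bead array 2 to 0.057 without KO bead array 1. The cause was not tested. No paired analysis was possible because the array numbers used here only follow the order of deposit and mark no shared culture or day. Without detection calls, signal over background was not tested.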
